A study of Mus musculus with 6 samples.

Results

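The genes described here encode 8 proteins of the red cell membrane and of the protein skeleton beneath it. They were chosen by gene symbol, with earlier results of these data known, as Slc4a1, Epb42, Sptb, Ank1, Rhag, Rhd, Kel and Ermap. They are 8 of the 54532 genes in the deposited count table, and all 8 were among the 15015 genes that passed the low-count filter, with at least 540 counts in every library. RNA-seq was done on marrow cells taken fresh from the femurs of WT mice, and the 6 libraries formed 2 groups of 3. In the unloaded group the mice underwent hindlimb unloading for 4 weeks, which lifts the hind limbs off the cage floor and is used as a model of osteoporosis from disuse. The control group had no treatment, and both groups shared the WT genotype. The labels used here give no age, sex or strain of the mice, and do not state whether each library came from a separate mouse, so the p-values measure only the spread between these samples.

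Red cells survive their passage through narrow vessels because their lipid bilayer is tied to a spectrin network. Band 3, the anion exchanger encoded by Slc4a1, spans the membrane and is bound from inside by ankyrin and by the protein that Epb42 encodes. Ankyrin in turn holds the spectrin network. The Rh proteins and the Kell glycoprotein are blood group antigens that sit in or near these complexes. In marrow the genes are switched on as erythroblasts mature, largely under the transcription factors GATA1 and KLF1, and the erythroblasts of a femur are a minority beside the neutrophil lineage.

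Because the 8 genes share an erythroid program, the DNA just before their start sites was searched for the letters that erythroid factors are known to bind. RefSeq windows on GRCm38.p6 were found for 6 of the 8 genes, and Slc4a1 and Ank1 were not matched. The windows end at the RefSeq start, which in Rhag, Ermap, Kel and Epb42 lies 23, 16, 14 and 195 bases inside the gene as the deposited table places it. In the 250 bases before the RefSeq start, the GATA motif (the letters GATA with A or T before them and A or G after them, either strand) was found in 5 of the 6 genes. The same search found it in 26.5% of all 32851 windows. Sptb was the gene without this motif, and it held the KLF motif (CCNCNCCC, either strand), which occurs in 45.9% of all windows and in none of the other 5 genes. The KLF matches in Sptb include a pair, on the strand opposite to the gene, that overlap each other. The E-box CAGNTG was found in Epb42 and Sptb, 2 of the 6 genes, against 44.8% of all windows. The windows of the 4 genes in which the GATA letters begin within 70 bases of the RefSeq start are shown with that of Sptb for contrast. Each is written 5′ to 3′ on the strand of its gene, with GATA and KLF motifs in capitals:
Rhag (chr17:40810899-40811148, plus strand): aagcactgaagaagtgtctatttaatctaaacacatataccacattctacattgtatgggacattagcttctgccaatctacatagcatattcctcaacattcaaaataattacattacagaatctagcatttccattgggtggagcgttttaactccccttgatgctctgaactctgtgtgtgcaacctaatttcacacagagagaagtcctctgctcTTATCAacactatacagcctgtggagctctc
Rhd (chr4:134864286-134864535, plus strand): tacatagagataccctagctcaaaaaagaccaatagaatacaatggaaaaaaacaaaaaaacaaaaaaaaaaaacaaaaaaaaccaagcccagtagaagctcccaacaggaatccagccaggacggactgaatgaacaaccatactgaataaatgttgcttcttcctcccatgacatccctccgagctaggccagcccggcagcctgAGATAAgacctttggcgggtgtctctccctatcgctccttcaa
Kel (chr6:41704326-41704575, minus strand): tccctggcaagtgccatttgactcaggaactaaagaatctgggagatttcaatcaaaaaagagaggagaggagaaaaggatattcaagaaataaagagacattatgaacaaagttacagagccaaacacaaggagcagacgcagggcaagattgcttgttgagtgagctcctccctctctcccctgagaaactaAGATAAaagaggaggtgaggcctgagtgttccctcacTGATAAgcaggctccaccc
Ermap (chr4:119189996-119190245, minus strand): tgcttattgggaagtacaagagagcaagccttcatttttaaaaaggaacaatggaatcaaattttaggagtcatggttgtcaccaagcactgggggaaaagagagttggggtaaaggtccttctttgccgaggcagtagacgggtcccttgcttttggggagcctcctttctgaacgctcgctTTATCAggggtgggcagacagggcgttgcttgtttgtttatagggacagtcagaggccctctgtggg
Sptb (chr12:76710548-76710797, minus strand): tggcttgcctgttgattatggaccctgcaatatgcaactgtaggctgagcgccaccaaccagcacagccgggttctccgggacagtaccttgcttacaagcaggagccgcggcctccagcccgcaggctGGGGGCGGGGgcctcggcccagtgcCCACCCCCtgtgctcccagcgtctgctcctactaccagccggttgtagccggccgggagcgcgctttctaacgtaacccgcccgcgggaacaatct

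In Rhag the GATA letters begin 31 bases before the RefSeq start and in Rhd 43 bases before it. Ermap holds them 67 bases before that start, and Kel holds a pair, 56 and 19 bases before it. In Epb42 the motif begins 226 bases before the RefSeq start but 31 bases before the deposited one. Counted from the deposited start, the motifs of the other 4 genes begin 5 to 51 bases before it. These are matches of letters only, since binding was not measured here.

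Library totals ran from 15850986 to 17775506 counts. The 8 genes together took 0.153% to 0.186% of counts in controls and 0.174% to 0.237% in unloaded samples. Erythroblast genes that mark the lineage were present in every library, with control means of 101 CPM for Klf1 and 53.8 CPM for Gata1. Unloaded 1 stood apart from the other 5 libraries, with 0.439% of its counts from mitochondrial genes against 1.05% to 1.27%. Fold changes of the 8 members and of the gene and marker lists below are therefore also given without it. In a bulk sample, a change in the number of erythroblasts and a change in RNA per erythroblast cannot be told apart.

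The question here was whether membrane and skeleton genes of red cells differ after 4 weeks without weight bearing. With p-values adjusted over all tested genes, edgeR's quasi-likelihood test called none of the 8 (smallest adjusted p = 0.802, for Sptb). Their fold changes ran from -0.030 for Rhd to 0.34 for Sptb on the log2 scale, 6 of them positive, with a median of 0.21 against 0.0054 over all tested genes. Sptb and Kel had the highest values, at 1.27 and 1.25 times the control level, and they are the 2 members at an unadjusted p under 0.05. That is 2 of 8 members, while 2.67% of all tested genes were higher at this threshold. The members were chosen with earlier results of these data known, so contrasts with all genes, here and below, are not blind to the data. In all, edgeR called 0 of 15015 genes (0%), with 879 at an unadjusted p under 0.05. DESeq2 also called 0 of the 8 members, against 35 genes in all (0.233%), and limma-voom called 0. The 2 groups failed to overlap for 1 member, Sptb, as they did with unloaded above control for 5.46% of all tested genes.

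**Figure D1:**
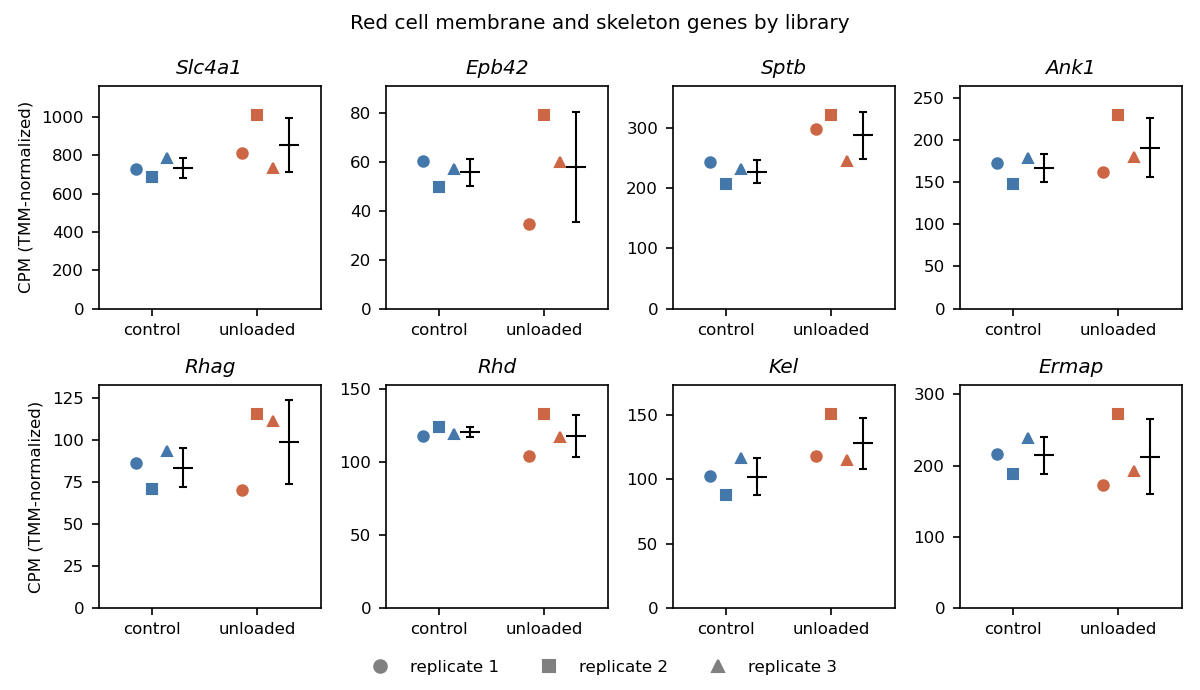
TMM-normalized CPM (linear axes from 0) of the 8 genes in each library, with control samples in blue and unloaded samples in orange, and the mean and SD of 3 libraries beside them. The unloaded 2 library is the highest of the 6 for every gene, and unloaded 1 is the lowest for Epb42, Rhag, Rhd and Ermap.

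Band 3 and its binding partner differed in how they varied. Slc4a1 (ENSMUSG00000006574, mm10 chromosome 11, 102348824 to 102366203, minus strand) measured 727, 687 and 788 CPM in controls 1 to 3 and 813, 1011 and 736 CPM in unloaded samples 1 to 3. The groups overlapped, since unloaded 3 lay below control 3. The means were 734 ± 51.1 and 853 ± 142 CPM (SD, n = 3), and the fitted log2 change was 0.22 ± 0.13 (SE) with a 95% interval from -0.074 to 0.51 and an edgeR adjusted p of 0.894. Epb42 (ENSMUSG00000023216, chromosome 2, 121017891 to 121037072, minus strand), whose product is a catalytically inactive relative of transglutaminases, was the least abundant member. Its controls measured 60.2, 49.7 and 57.0 CPM and its unloaded samples 34.4, 79.0 and 59.9 CPM. The unloaded samples thus held both the lowest and the highest value of the 6 libraries, on either side of all 3 controls. The log2 fold change was 0.056 ± 0.23, with an interval from -0.46 to 0.57 (edgeR adjusted p = 0.979). It was 0.32 without unloaded 1 and -0.24 without unloaded 2, so its direction rests on single libraries.

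The skeleton genes Sptb and Ank1 were both higher on average in unloaded marrow, though neither was called. Sptb (ENSMUSG00000021061, chromosome 12, 76580488 to 76710547, minus strand), which encodes beta-spectrin of the erythroid network, measured 243, 207 and 232 CPM in the controls and 298, 321 and 245 CPM in the unloaded samples. All 3 unloaded values lay above all 3 control values, but unloaded 3 was above control 1 by little. The means were 228 ± 18.6 and 288 ± 39.3 CPM (SD, n = 3), and the log2 fold change was 0.34 ± 0.12 with an interval from 0.065 to 0.61 (unadjusted p = 0.0201, edgeR adjusted p = 0.802). Ank1 (ENSMUSG00000031543, chromosome 8, 22974844 to 23150497, plus strand) encodes ankyrin, the link between band 3 and spectrin. Its control values were 172, 148 and 179 CPM and its unloaded values 162, 229 and 180 CPM, and the groups overlapped. The log2 fold change was 0.20 ± 0.14 (interval -0.11 to 0.50, edgeR adjusted p = 0.896). Muscle also makes a short product from an internal start of this gene, which gene counts do not separate. Ank1 shares 862 exon bases with the antisense gene Gm15816, which had 15 to 42 counts per library against 2448 to 3892 for Ank1. No source used here states the strand setting of the counting, so reads of that stretch cannot be assigned with certainty. Sptb shares 1 exon base with Plekhg3 on the opposite strand.

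The Rh genes differed in how far the libraries spread. Rhag (ENSMUSG00000023926, chromosome 17, 40811126 to 40840754, plus strand) encodes the glycoprotein that the Rh complex needs to reach the surface. It measured 86.6, 70.7 and 93.5 CPM in the controls and 70.3, 116 and 112 CPM in the unloaded samples. Unloaded 2 and unloaded 3 exceeded every control, while unloaded 1 was the lowest library of all. The log2 fold change was 0.25 ± 0.18, with an interval from -0.15 to 0.65 (edgeR adjusted p = 0.896), and it was 0.44 without unloaded 1. Rhd (ENSMUSG00000028825, chromosome 4, 134864536 to 134896172, plus strand) encodes the Rh protein itself. Its control values were 118, 124 and 120 CPM and its unloaded values 104, 133 and 117 CPM. The controls were closer together for Rhd than for any other member relative to their mean, at 121 ± 3.24 CPM (SD, n = 3). The unloaded samples lay on both sides of them, and the log2 fold change was -0.030 ± 0.11, with an interval from -0.28 to 0.22 (edgeR adjusted p = 0.979), or 0.054 without unloaded 1.

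Of the other blood group genes, Kel had a positive fold change and Ermap one near 0. Kel (ENSMUSG00000029866, chromosome 6, 41686330 to 41704339, minus strand) encodes the Kell glycoprotein, a membrane endopeptidase linked to the XK protein. It measured 102, 87.6 and 116 CPM in the controls and 118, 151 and 115 CPM in the unloaded samples. Unloaded 3 lay just below control 3, so the groups overlapped. The log2 fold change was 0.33 ± 0.14, with an interval from 0.018 to 0.63 (unadjusted p = 0.0398, edgeR adjusted p = 0.816). Its partner gene Xk, from the list of other membrane genes, was at 42.4 ± 4.6 and 39.6 ± 10.8 CPM (SD, n = 3; edgeR adjusted p = 0.960). Ermap (ENSMUSG00000028644, chromosome 4, 119175457 to 119190011, minus strand) encodes an immunoglobulin-like protein of erythroblasts that carries the Scianna antigens. Its control values were 216, 187 and 239 CPM and its unloaded values 173, 272 and 193 CPM. The unloaded samples again held the lowest and the highest library. The log2 fold change was -0.011 ± 0.17 (interval -0.38 to 0.35, edgeR adjusted p = 0.998), and it was 0.12 without unloaded 1 and -0.23 without unloaded 2.

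**Figure D2:**
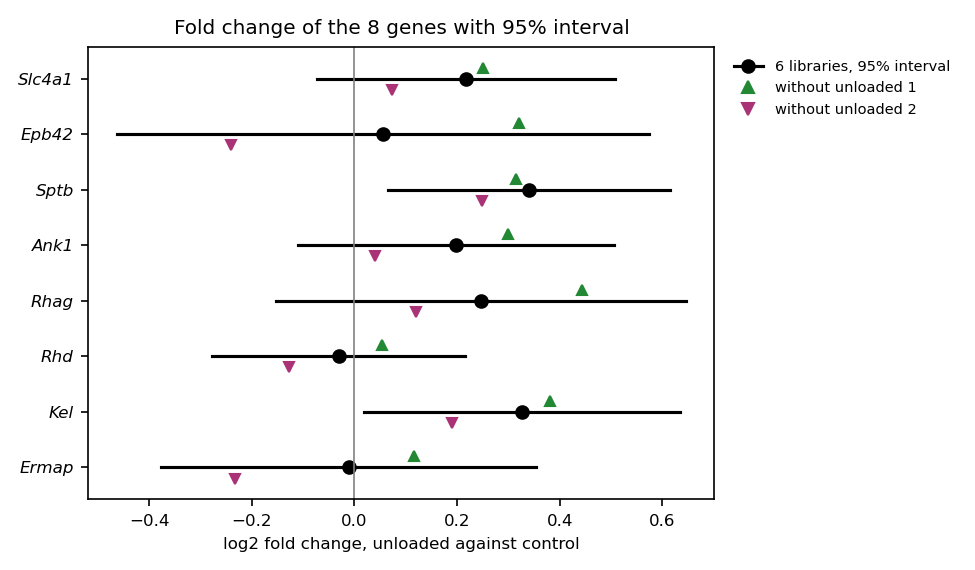
Log2 fold change of each gene, unloaded against control, with its 95% interval from edgeR over 6 libraries (black) and the value with unloaded 1 or unloaded 2 left out (triangles). The intervals of Sptb and Kel lie above 0 before adjustment, and every value is higher without unloaded 1 than without unloaded 2.

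The fold changes depended on single libraries. Without unloaded 1 all 8 fold changes were positive (median 0.31), and 5 of 8 were at an unadjusted p under 0.05 (Epb42, Rhag, Sptb, Ank1 and Kel). Of all 15438 genes tested without that library, 3.81% were higher at this threshold. None of the 8 was called then either, the smallest edgeR adjusted p being 0.284 for Rhag. Without unloaded 2 the median was 0.057, with 5 of 8 positive and 0 at an unadjusted p under 0.05. Leaving out control 2 gave a median of 0.13. In unloaded 2 each member lay above the control mean, from 0.14 for Rhd to 0.56 for Kel on the log2 scale. In control 2, 7 of the 8 lay below it, and Rhd was the exception.

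The members spread further apart in unloaded 1 than in the other 5 libraries. The log2 ratio to the control mean spanned 1.08 across the 8 genes in unloaded 1, from -0.69 for Epb42 to 0.39 for Sptb. The span was 0.42 in unloaded 2 and 0.57 in unloaded 3. In the controls, each set against the mean of the other 2 controls, it was 0.22 to 0.41. Genes at 30 CPM or more varied more in unloaded 1 as well, with an SD of 0.34 over 6341 genes beside an SD of 0.34 over the 8 members. In unloaded 2 and unloaded 3 that background SD was 0.16 and 0.19, and the members' SD 0.13 and 0.17.

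**Figure D3:**
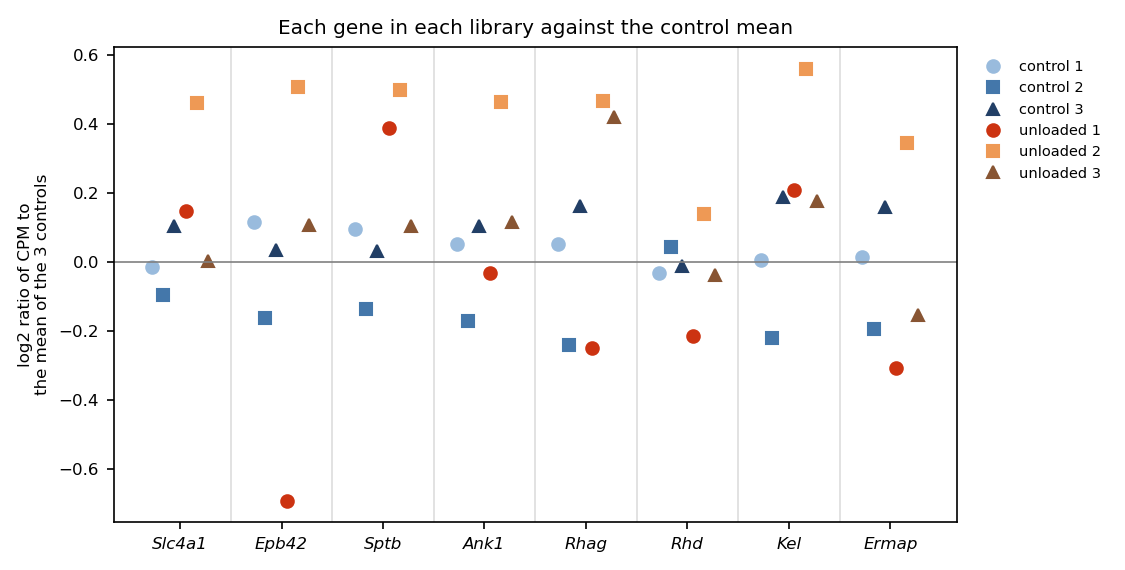
Log2 ratio of CPM to the mean of the 3 controls for each gene (columns) in each of the 6 libraries (coloured markers). Unloaded 2 lies above 0 for all 8 genes, while unloaded 1 ranges from -0.69 for Epb42 to 0.39 for Sptb.

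The order within unloaded 1 went partly with base composition. The 3 members with the lowest GC content were Rhag (42.2%), Epb42 (47.1%) and Ermap (48.9%), and they were also the 3 lowest in that library, at -0.25, -0.69 and -0.31. Sptb, with 57.0% GC, was the highest, but Ank1, also at 57.0%, was at -0.033. Genes at 30 CPM or more were split by GC content into low, middle and high sets of 2113 genes. The median log2 ratio in unloaded 1 was -0.19 in the low set, -0.017 in the middle set and 0.14 in the high set. Rhag in the low set and Slc4a1 in the high set (0.15) lay near those medians. Epb42 and Ermap fell in the middle set (46.5% to 52.7% GC), well below its median, and Kel there was at 0.21. Rhd, in the high set with 54.1% GC, was at -0.21. After removal of each library's GC trend, the median of the 8 members was 0.18 and Epb42 was at 0.055. The part of GC content in the spread within unloaded 1 was not tested.

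Levels of different genes were compared per length, as counts per kilobase of the deposited gene length scaled to the same sum in each library (TPM). Slc4a1 was the highest in each library, at 451 ± 76.7 TPM over the 6 libraries (SD, n = 6). Rhd followed at 208 ± 19.5, and its lowest library was above the highest of Kel. Kel, Ermap and Rhag, at 116, 112 and 109 TPM, could not be ordered beyond their spread. Below them came Sptb (58.9 TPM), Ank1 (36.7 TPM) and Epb42 (29.1 TPM). Within each library Sptb stood above Ank1 and Ank1 above Epb42, although their ranges over libraries overlapped. The gene length of a multi-isoform gene such as Ank1 is a union of exons, which may lower its TPM.

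Ratios between members do not depend on scaling between libraries, and the ratios given here were picked with the member values in view. The ratio of Sptb to Epb42 was 1.80, 1.86 and 1.82 in controls and 1.81 and 1.82 in unloaded 2 and unloaded 3, but 3.86 in unloaded 1. Sptb to Ank1 behaved likewise, with 1.45 to 1.57 in 5 libraries and 2.04 in unloaded 1. Both ratios lay in a narrow range in every library but that one. Rhag to Rhd ranged more widely, at 0.50, 0.387 and 0.533 in controls and 0.460, 0.592 and 0.648 after unloading, with overlapping groups.

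**Figure D4:**
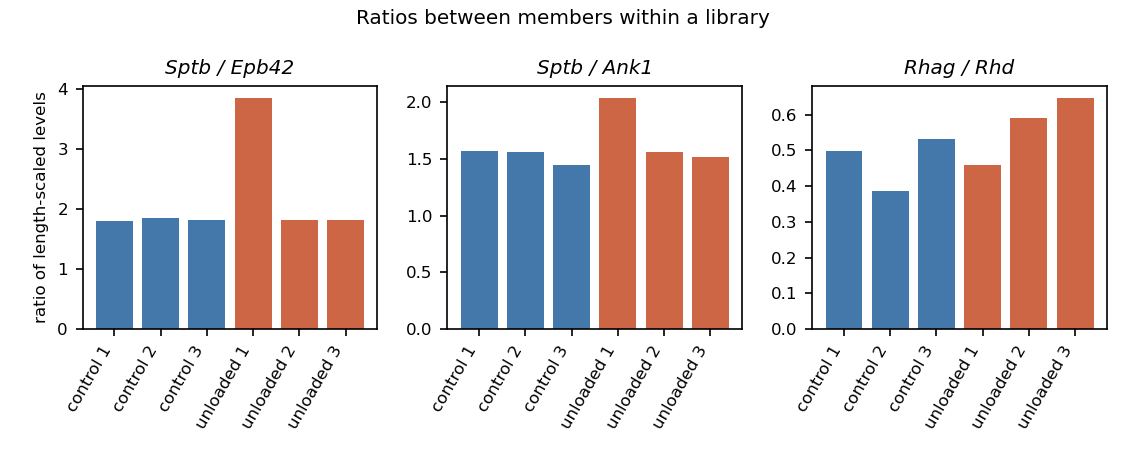
Ratio of length-scaled levels (bars from 0) of Sptb to Epb42, Sptb to Ank1 and Rhag to Rhd in each control (blue) and unloaded (orange) library. Unloaded 1 stands apart at 3.86 and 2.04 in the first pair of panels, while Rhag to Rhd varies in both groups.

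As shares of the summed TPM of the 8 genes, Slc4a1 made up 39.5% ± 0.464 in controls and 41.0% ± 2.83 after unloading (SD, n = 3). Kel was the member whose share separated the groups, at 8.96% to 10.3% in controls and 10.6% to 11.2% after unloading. Its exact two-sided permutation p was 0.1, the smallest that 3 against 3 allows, and 0.4 when adjusted over the 8 shares. No share can therefore pass a threshold of 0.05 in this design.

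Other genes of the red cell surface and skeleton had a smaller median fold change. Of the 34 symbols in this second list, 32 were tested, 24 had a positive fold change, and 0 were called in either direction by edgeR. The median was 0.073, against 0.21 for the 8 members and 0.0054 for all tested genes, and it was 0.10 without unloaded 1 and -0.047 without unloaded 2. At an unadjusted p under 0.05 there was 1 higher gene of the 32 tested, beside 2.67% of all tested genes. It was Abcb6, a porphyrin-linked transporter that carries the Langereis antigen. Its means were 2.35 ± 0.272 CPM for control and 3.54 ± 0.517 CPM for unloaded marrow (SD, n = 3; log2 0.59 ± 0.26, edgeR adjusted p = 0.828). Add2, the erythroid adducin that caps the skeleton's actin filaments, had 0.19 ± 0.11 (edgeR adjusted p = 0.885). The aquaglyceroporin gene Aqp9 had -0.16 ± 0.10 (edgeR adjusted p = 0.896) with all 3 unloaded values below the controls. In this list the groups failed to overlap for 1 gene in each direction. Of all 15015 tested genes, 820 had unloaded above control without overlap and 961 had unloaded below. The glucose transporter gene Slc2a1 had 0.23 ± 0.16 (edgeR adjusted p = 0.896), a value that was 0.065 without unloaded 1, 0.37 without unloaded 2 and 0.15 without control 3. Icam4 had no count in any library, so by counting error alone its level could be as high as 0.189 CPM in the library of lowest depth, and Bcam was too low to test.

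The globins had larger fold changes than the membrane genes. The 4 globin genes tested had a median of 0.50, from 0.36 for Hba-a2 to 0.55 for Hbb-bs, and 0 were called by edgeR. The median was 0.47 without unloaded 1 and 0.33 without unloaded 2. The adult globin copies are near-identical, so Hba-a1 (0.47 ± 0.14), Hba-a2 (0.36 ± 0.44), Hbb-bs (0.55 ± 0.13) and Hbb-bt (0.54 ± 0.22) are uncertain one by one. DESeq2 called Hbb-bs (adjusted p = 0.0374) and no other gene of these erythroid lists. Without the low-count filter, where 0.671% of 27287 genes were called, edgeR called Hbb-bs (adjusted p = 0.0073) and Hbb-bt (adjusted p = 0.0067). Of the 12 heme synthesis genes 11 were positive, with a median of 0.084 and 0 called. That list also depended on single libraries. Without unloaded 1 all 12 were positive, with a median of 0.19 and 6 at an unadjusted p under 0.05 (3.81% of all tested genes were higher at that threshold), while without unloaded 2 only 7 were positive, with a median of 0.0055. Leaving out control 2 gave 0.050 and leaving out control 3 gave 0.15. Alas2, the first enzyme of heme synthesis in erythroid cells, had the smallest p of that list (0.42 ± 0.14, edgeR adjusted p = 0.801), and values are also given for the mitochondrial iron importer gene Slc25a37 (0.18 ± 0.12) and Urod (0.11 ± 0.099). Among 11 erythroid transcription factor and receptor genes 6 were positive, with a median of 0.0045 and 0 called. Without unloaded 1 it was 9 of 11 (median 0.064) and without unloaded 2 it was 2 of 11 (median -0.049), so the direction of this list rests on single libraries. Its median was also just below 0 without control 2, control 3 or unloaded 3. With all 6 libraries it was -0.018 after removal of the GC trend and -0.0050 without the low-count filter. The direction of this list thus depends on the processing as well. Lmo2 was at -0.19 ± 0.17, Bcl11a at 0.098 ± 0.095, Sox6 at 0.15 ± 0.16 and Tal1 at 0.090 ± 0.16. The differences between these lists and the 8 members were not tested.

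Markers of other marrow cells are given because CPM is relative to all counts of a library. The summed level of 9 neutrophil markers ran from 50761 to 58258 CPM in controls and from 47371 to 57974 CPM after unloading. Unloaded 2, where the 8 membrane genes were highest, had the lowest neutrophil sum, and a link between these levels was not tested. The 7 erythroblast markers found in the table summed to 3618 to 4368 CPM in controls and 4580 to 5894 CPM after unloading, and most of that sum is globin. Without unloaded 1, all 7 erythroblast markers were positive (median 0.29), against 6 of 7 with all libraries (median 0.076) and 3 of 7 without unloaded 2 (median -0.035). Of the 9 neutrophil markers 2 were positive, or 4 without unloaded 1, with medians of -0.070 and -0.019. With all 6 libraries and the low-count filter, edgeR called none of the marker genes.

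Megakaryocyte and B cell markers had mostly negative fold changes. The 6 megakaryocyte markers, a lineage that shares GATA1 with red cells, summed to 98.1 to 104 CPM in controls and 71.5 to 89.0 CPM after unloading. Of these markers 5 had a negative fold change (median -0.65), 4 of them at an unadjusted p under 0.05, beside 3.18% of all tested genes that were lower at that threshold. DESeq2 called 1, the platelet chemokine gene Ppbp (-1.32 ± 0.30 in edgeR, adjusted p = 0.0057 in DESeq2). Over all tested genes, the share that DESeq2 called was 0.233%. The 7 B cell markers summed to 655 to 760 and 489 to 675 CPM. All 7 were negative (median -0.23), 3 of them at an unadjusted p under 0.05, and DESeq2 called 1, the surrogate light chain gene Vpreb3 (adjusted p = 0.0043). Without unloaded 1 all 6 megakaryocyte and all 7 B cell markers were negative, with medians of -0.52 and -0.34. The 6 monocyte and macrophage markers summed to 1548 to 1657 and 1378 to 1683 CPM. Of these 4 were negative (median -0.13, or -0.093 without unloaded 1). At an unadjusted edgeR p under 0.05, 1 was higher and 1 lower, beside 2.67% and 3.18% of all tested genes. DESeq2 called 1, Cx3cr1 (adjusted p = 0.00090). These 3 genes were named after their values were seen.

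The markers of macrophages that nurse erythroblasts depended on unloaded 1. Of the 8 markers 5 were positive with all libraries (median 0.046), and 1 was positive without unloaded 1 (median -0.21), with 4 lower at an unadjusted p under 0.05 (5.18% of all tested genes were lower at that threshold). They summed to 195 to 246 CPM in controls and to 268, 188 and 198 CPM in unloaded samples 1 to 3, so unloaded 1 alone lay above the controls. The part of cell composition in the fold changes of the 8 genes was not tested.

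Outside these lists, the protein-coding genes most like the mean pattern of the 8 members were Ttc19, Slc6a20a, Ufl1, Fasn and Atp2b4. Likeness was the root mean square difference of centred log2 CPM over the 6 libraries. It was 0.034 for Ttc19 and 0.061 for Atp2b4, against a median of 0.24 over 9979 candidate genes. The named genes were picked for the smallest differences among these candidates, so values below the median follow from the choice. Ttc19 had 183 to 276 counts per library and Slc6a20a 90 to 155. Whether their likeness goes beyond counting error was not tested. Among the members, Ank1 was closest to their common mean (0.026) and Epb42 farthest (0.23). Atp2b4 encodes a plasma membrane calcium pump that red cells carry. Its means were 97.3 ± 11.2 CPM for control and 116 ± 17.9 CPM for unloaded marrow (SD, n = 3; log2 0.25 ± 0.13, edgeR adjusted p = 0.883). Ufl1 encodes the ligase of the UFM1 protein modifier, Fasn encodes fatty acid synthase, and Ttc19 a factor of mitochondrial respiratory chain assembly.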

How the data were processed

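Raw read counts per gene, with no normalization, were deposited by the authors for 6 libraries, together with gene positions and lengths on mm10. Per the submitters' processing notes, the tools were CASAVA, HISAT2 2.0.5 and featureCounts 1.5.0-p3. No annotation release, strand setting or rule for multi-mapped reads is given in the sources used here. Libraries were grouped by their titles.

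Genes were kept by filterByExpr, scaled with TMM and tested in R 4.3.3 by the quasi-likelihood functions glmQLFit and glmQLFTest of edgeR 4.0.16, without a replicate block. Benjamini-Hochberg adjustment ran over 15015 genes, with calls at an adjusted p under 0.05. Standard errors were taken as the log2 fold change over the root of its F statistic, and 95% intervals use the fit's degrees of freedom. Log2 CPM used a prior count of 2. Scripts were tested on simulated data. GC content came from the longest GENCODE M21 transcript of each gene with a value for 99.9% of the genes. No library pair agreed within sampling noise (chi-square per degree of freedom 7.20 to 38.5). Pairs that include unloaded 1 lay at 32.2 to 38.5, and all other pairs at 7.20 to 15.2.

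Alternatives were DESeq2 1.42.0, voom from limma 3.58.1, upper-quartile or RLE scaling, 2 other filters, removal of the hemoglobin and 20 most counted genes, each library left out and the replicate number as a block. Removal of the GC trend was added after seeing the data. The members and lists were chosen with earlier results of these data known. Named genes were the 8 members, from each of 4 lists the 4 genes of lowest p, and the 5 genes most like the members' mean among those with at least 5 CPM. Some genes of these lists are not reported here, Ahsp was not analysed here, and protein sequences were not used here.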

Additional observations from a re-analysis of the deposited data

How the results depend on the processing

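None of the 8 members was called under any of the 15 alternatives, and Slc4a1, Sptb, Ank1, Rhag and Kel kept a positive fold change in all 15. Their lowest and highest values were 0.074 and 0.31 for Slc4a1, 0.25 and 0.44 for Sptb, 0.039 and 0.30 for Ank1, 0.12 and 0.44 for Rhag, and 0.19 and 0.43 for Kel. Directions near 0 turned. Epb42 was at -0.017 with limma-voom and -0.014 with the replicate block, and with 1 library left out it ran from -0.24 (without unloaded 2) to 0.32 (without unloaded 1), with -0.020 without control 2. Ermap was at 0.0070 with upper-quartile scaling, and with 1 library left out it ran from -0.23 (without unloaded 2) to 0.12 (without unloaded 1), with 0.074 without control 3 and 0.053 without unloaded 3. Rhd ran from -0.13 (without unloaded 2) to 0.054 (without unloaded 1). Of the other genes named, values with 1 library left out ran from -0.34 to 0.0075 for Lmo2, -0.16 to 0.79 for Hba-a2, -0.052 to 0.24 for Sox6 and -0.0086 to 0.26 for Tal1, the turned value being that without unloaded 1 for Lmo2 and without unloaded 2 for the other 3. Over all genes, edgeR called 0 higher and 0 lower genes, DESeq2 11 and 24, edgeR without a low-count filter 89 and 94, and with 1 library left out 0 to 3 higher and 0 to 2 lower. Calls without unloaded 1 were 3 and 2, and 0 without any other library. The cause of these differences was not tested. Replicate numbers are shared by the groups, but same-numbered libraries did not deviate together (correlations 0.031, -0.063 and 0.019), so the numbers were not taken as pairs. With the replicate block 1 gene was called higher and 0 lower, no member was called, and the median of the 8 members was 0.20. With 3 libraries a group, a 95% interval of a member spans 0.49 to 1.04 on the log2 scale, which limits what size of difference can be seen.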
